A study of Mus musculus with 2 samples.

Results

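Mir92b is the mouse gene of microRNA 92b, and it was described here in the midbrain of mouse embryos of strain B6NCrl at embryonic day 10.5. It was found as the row whose Ensembl identifier, ENSMUSG00000076255, belongs to Mir92b in the GENCODE annotation of mm10, which gave 1 gene of the 1973 microRNA genes counted. The series holds 1 group of 2 libraries of RNA under 30 nt, which the labels give as biological replicates of healthy tissue, with no treatment or altered gene named. Replicate 1 came from the pooled midbrains of 69 embryos and replicate 2 from those of 51, with both sexes in each pool. A pool averages over embryos, and with 1 group the data give levels and their spread but no contrast between conditions. In such bulk tissue, a change in how many cells make a microRNA and a change in how much each cell holds cannot be told apart.

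A microRNA is cut from a folded precursor, the hairpin, and 1 of its arms is loaded into an Argonaute protein, where bases 2 to 8 from the 5′ end (the seed) pair with target messages and lower their output. miR-92b belongs to the family of miR-25 and miR-92, whose members share a seed and so a large part of their targets. In the developing forebrain it is known from neural progenitors, where miR-92 restrains Eomes (Tbr2), the transcription factor of intermediate progenitors. Most relatives of Mir92b lie in polycistrons, single transcripts with several microRNAs, of which that of Mir17hg, the host transcript of Mir17, is known for driving proliferation.

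The hairpin of Mir92b lies at chr3:89227116-89227198 on the minus strand (mm10, 1-based). It is shown here with both mature arms in capitals, as RefSeq gives them for GRCm38.p6, the same build, because the counts cover both arms together.
Mir92b hairpin: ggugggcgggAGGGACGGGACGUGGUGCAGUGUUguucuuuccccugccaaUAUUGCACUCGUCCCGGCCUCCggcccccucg

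The 3p arm carries the family seed, and the mature sequences with that seed are shown together, with the seed in capitals, because the values that follow depend on how far they can be told apart. Of 1738 mature entries in the RefSeq table, 7 had this seed, 1 from each of 7 genes, and all 7 genes were among those counted.
miR-92b-3p (Mir92b): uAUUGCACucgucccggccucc
miR-92a-3p (Mir92-1 and Mir92-2): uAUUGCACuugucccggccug
miR-25-3p (Mir25): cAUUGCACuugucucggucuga
miR-32-5p (Mir32): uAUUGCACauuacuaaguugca
miR-363-3p (Mir363): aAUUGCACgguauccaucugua
miR-367-3p (Mir367): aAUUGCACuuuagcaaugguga

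miR-92b-3p was closest to miR-92a-3p. With positions counted from 1 at the 5′ end of miR-92b-3p and no gaps, the pair differed by C10U and C21G over 21 positions compared, an identity of 90.5%. miR-25-3p differed from it by 6 substitutions, U1C, C10U, C14U, C18U, C21G and C22A, and had an identity of 72.7%. The others were more distant, with 50.0% identity for miR-32-5p and 45.5% each for miR-363-3p and miR-367-3p. The whole of miR-92a-3p occurs in 2 microRNA genes, Mir92-1 and Mir92-2, whereas the whole of miR-92b-3p occurred in the transcripts of no other M21 gene than Mir92b. The longest stretch that the Mir92b precursor shared with any of the other M21 microRNA precursors, on either strand, was 12 bases, and with Mir92-1 and Mir92-2 it was 10 bases. Reads that map to several places are kept out of the gene counts, so reads that lie wholly within miR-92a-3p cannot be counted for either of its genes. For Mir92b no second origin of this kind was found among the M21 transcripts, and the genome itself was not searched.

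The hairpin was rich in G and C and was predicted to fold tightly. Its 83 bases were 67.5% G or C, against a median of 50.8% over the 2202 M21 precursors, of which 112 (5.09%) were richer. Among the 338 genes with a mean of 10 CPM or more (CPM, reads per 1000000 gene-assigned reads), 17 precursors were richer. The other genes with the seed had 38.6% (Mir32) to 63.1% (Mir25). RNAfold gave a minimum free energy of −52.7 kcal/mol, or −0.63 per base, where the median of those 338 genes was −0.43 and 5 had a lower value. In the predicted fold, 21 of the 22 bases of miR-92b-3p were paired, 19 of them with the 5p arm, and all 7 bases of the seed were paired. These are properties of the sequence and were not measured.

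Mir92b stood apart from other counted microRNA genes along the chromosome, unlike the members of the polycistrons. The nearest counted one was Mir1905, 690733 bases away and without reads in either library, and the nearest one with a mean over 10 CPM was Mir190b, 842821 bases away, with 76 and 117 reads. Its closest protein-coding neighbour was Mtx1, a mitochondrial import gene on the same strand, whose M21 model begins 27 bases beyond the 3′ end of the hairpin. That distance rests on a transcript model without a coding sequence, and a coding model begins 63 bases away, while the RefSeq gene begins 13208 bases away. Thbs3, a thrombospondin gene on the opposite strand, ends 278 bases from the hairpin, and the mucin gene Muc1 begins 1858 bases away on the other side. The hairpin overlaps none of them.

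**Figure D1:**
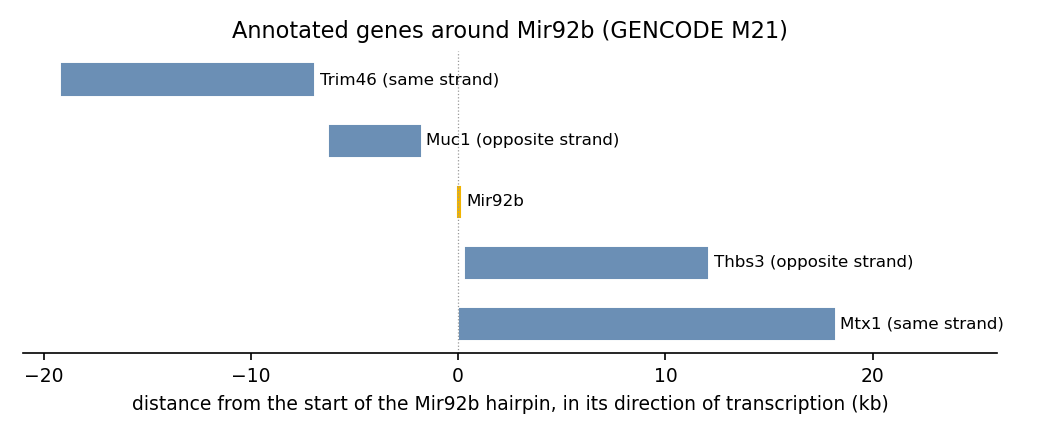
Annotated genes (GENCODE M21) around Mir92b, by distance in kb from the start of the hairpin along its direction of transcription. Bars span whole genes; Mtx1 begins 27 bases after the hairpin and no bar overlaps Mir92b.

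By counted reads, Mir92b was among the most abundant microRNA genes of the midbrain in both libraries. It had 70064 reads in replicate 1, of which 70063 lay on what was taken as its own strand and 1 on the opposite one, and 93358 reads in replicate 2, all on its own strand. This made 21245 CPM in replicate 1 (95% exact Poisson interval 21088 to 21403) and 25352 CPM in replicate 2 (25190 to 25516). The mean was 23299 ± 2904 CPM (SD, n = 2), or 2.33% ± 0.290 of the gene-assigned reads. The SD was 12.5% of the mean, and the counting intervals of the 2 libraries did not overlap. All intervals here cover counting error alone and are too narrow where amplified copies of 1 molecule were read more than once, which no molecular identifier shows. Of all reads of the libraries, mapped or not, Mir92b made up 0.897% and 0.991%.

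By its mean level in counted reads Mir92b had rank 9 of 1973 genes, with rank 11 in replicate 1 and rank 8 in replicate 2. The counts leave out reads that mapped to several places, 2412710 in replicate 1 and 2775444 in replicate 2. Genes that lost such reads may be ranked too low. Whether any of them would lie above Mir92b was not tested, so the ranks hold for counted reads alone. A gene was taken as not told apart from Mir92b when the difference of the means was below the larger SD of the pair or when their order turned between replicates. Of the 18 other genes within the first 19 ranks, 3 were not told apart from it. Mir99b, of the miR-99/100 family, had 25415 CPM in replicate 1 and 21177 in replicate 2, so that it lay above Mir92b in the first and below it in the second. Mir100, of the same family, had 34642 and 24857 CPM. Mir30e, of the miR-30 family, had 22175 and 16369 CPM. All 3 were higher than Mir92b in replicate 1 and lower than it in replicate 2.

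The neighbours on either side that were told apart bound its place in the order. Mir26b, an intronic microRNA of Ctdsp1, was higher in both libraries with 25699 and 28411 CPM, and Mir126a, the endothelial microRNA, was higher in both with 26449 and 30780 CPM. Mir93, of the mir-106b-25 polycistron in Mcm7, was lower in both with 20416 and 19999 CPM, although its margin below Mir92b was little more than the SD of Mir92b itself. Mir322, Mir130b, Mir106b and Mir106a followed at means of 15400 to 12639 CPM and were lower than Mir92b in both libraries.

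**Figure D2:**
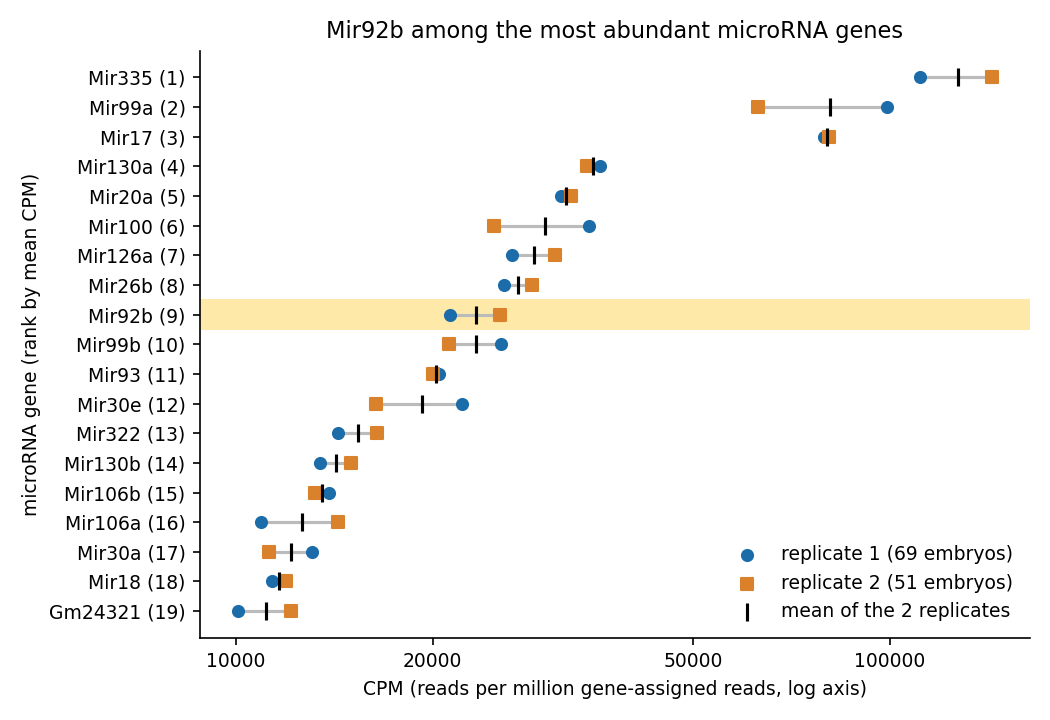
CPM on a log axis of the 19 most abundant microRNA genes, ordered by mean, with a circle for replicate 1, a square for replicate 2 and a bar for the mean. Mir92b (shaded) lies at 21245 and 25352 CPM, and its range overlaps those of Mir100, Mir99b and Mir30e, whose higher value is that of replicate 1.

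The 5 genes most like Mir92b over both libraries, by the Euclidean distance of log2 CPM, were Mir26b (distance 0.32), Mir93 (0.35), Mir99b (0.37), Mir126a (0.42) and Mir30e (0.63). With 2 libraries this measure holds little more than the level itself. Of these 5, Mir126a and Mir26b had log2 ratios between the libraries of the same sign as Mir92b (0.22 and 0.15).

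Among the genes with its seed, Mir92b had the most reads in each library. The 7 genes held 127561 reads in replicate 1 and 176327 in replicate 2, which was 3.87% and 4.79% of the gene-assigned reads. Mir92b made up 54.9% of these reads in replicate 1 (95% Wilson interval 54.7 to 55.2%) and 52.9% in replicate 2 (52.7 to 53.2%), a mean of 53.9% ± 1.40 (SD, n = 2). The shares in the pools lay close together, but their counting intervals did not overlap.

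Mir92-1, the last microRNA of the Mir17hg polycistron, was second with 8358 and 9508 CPM (mean 8933 ± 813, SD, n = 2). Mir92b had 2.54 and 2.67 times its reads. Mir363, which ends the related mir-106a-363 polycistron on the X chromosome, had 6336 and 9351 CPM, and Mir92b 3.35 and 2.71 times its reads. The difference between Mir92-1 and Mir363 was smaller than the SD of Mir363, so these 2 were not told apart, while both lay below Mir92b in each library by more than its spread. Mir92-2, the other source of miR-92a-3p, had 1361 and 2171 CPM. Mir25, the last microRNA of the mir-106b-25 polycistron, had 1022 and 1109 CPM and Mir32, a gene of chromosome 4, had 354 and 386 CPM. Mir367, which belongs to the mir-302 cluster of pluripotent cells, was almost without reads, with 13 in replicate 1 and 25 in replicate 2.

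**Figure D3:**
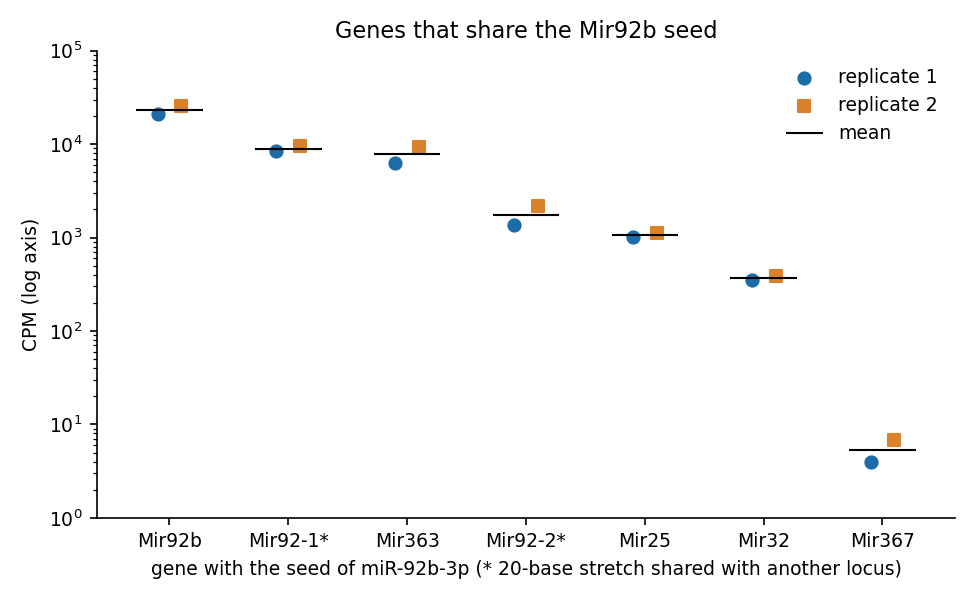
CPM on a log axis of the 7 genes whose mature microRNA has the seed of miR-92b-3p, with a circle for replicate 1, a square for replicate 2 and a line for the mean. Mir92b is highest in both libraries, and the asterisks mark Mir92-1 and Mir92-2, whose mature sequence occurs in both genes and whose reads can be lost as multiply mapped.

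The order within this family holds for reads that map to 1 place and not for the mature microRNAs. Mir92-1 and Mir92-2 together had 32051 reads in replicate 1 and 43006 in replicate 2, and Mir92b had 2.19 and 2.17 times as many. The reads that mapped to several places numbered 2412710 and 2775444. The gap between Mir92b and the pair of miR-92a genes, 38013 and 50352 reads, was equal to 1.58% and 1.81% of them. How many of those reads came from miR-92a-3p was not analysed here, so whether miR-92b or miR-92a is the more abundant mature form cannot be told from these counts. Among the 5 genes without a 20-base stretch in common with another microRNA locus, Mir92b made up 73.4% and 70.0% of the reads.

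Reads were spread unevenly within the polycistrons that hold the relatives. In the Mir17hg polycistron, Mir17 had 80045 ± 994 CPM and Mir20a 31949 ± 799 CPM (SD, n = 2), above Mir92b, while Mir18 at 11644 ± 390 CPM and Mir92-1 were below it, and Mir19a had 182 ± 24.1 CPM. In the mir-106a-363 polycistron the highest members were Mir106a at 12639 ± 2427 CPM, Mir363 and Mir20b at 6949 ± 1079 CPM. In the mir-106b-25 polycistron, Mir93 had 20207 ± 294 CPM and Mir106b 13537 ± 465 CPM, both far above their neighbour Mir25, and both were lower than Mir92b in each library.

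Between the pools the level of Mir92b differed by an amount near the middle of those of all genes with a mean of 10 CPM or more. In replicate 2 it was 1.20 times that in replicate 1 (log2 ratio 0.26 after TMM scaling of the libraries; 95% counting interval of the ratio 1.19 to 1.21). Of the 338 genes of mean CPM 10 or more, 167 (49.4%) had a larger log2 ratio in size, and 58 (17.2%) differed by more than 1.5-fold in either direction, which Mir92b did not. The SD of the log2 ratio was 0.57 over these genes and 0.29 over the 19 genes with a mean of at least 10000 CPM. In the latter set the ratios ran from −0.65 (Mir99a) to 0.40 (Mir106a). Of these 19 genes, 6 had a larger log2 ratio in size than Mir92b, and 3 had a higher ratio.

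The other genes with the seed had ratios of the same sign. All 6 with a mean of 10 CPM or more, Mir92b included, had log2 ratios above 0, with a median of 0.23, beside a median of −0.03 and 160 of 338 above 0 for all genes of that level. Mir92-2 had 0.68 and was the only 1 of the 6 more than 1.5-fold higher in replicate 2, as were 8.88% of all genes. Mir363 had 0.57, Mir92-1 0.19, Mir32 0.13 and Mir25 0.12. Reads wholly within miR-92a-3p are counted for neither Mir92-1 nor Mir92-2, so the ratios of these genes rest on their other reads alone. The members are not independent of each other, because Mir92-2 and Mir363 lie in 1 polycistron, in which all 6 genes had ratios above 0 (median 0.37).

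Other genes of the neural progenitor list had ratios of the opposite sign to Mir92b where they reached a mean of 10 CPM. The list, which also has the miR-9, miR-181 and miR-135a genes, is a selection, so the signs hold for its members alone. Besides Mir92b, 9 of its genes reached that mean. All 9 had log2 ratios below 0, from −1.09 to −0.09 with a median of −0.65, where 178 of all 338 genes were below 0. More than 1.5-fold lower in replicate 2 were 5 of the 9, as were 8.28% of all genes. The 9 are not independent of each other, as 6 are miR-181 genes that lie in 3 groups of neighbours and 2 are copies of miR-135a, and 7 of the 9 have a 20-base stretch in common with other loci. The highest of them, Mir181c, had 8228 CPM in replicate 1 and 5622 in replicate 2, and Mir181d, beside it in the genome, had 6797 and 4303 CPM. Mir181a-1 had 2869 and 2445 CPM. The 10 counted members of the list besides Mir92b summed to 22131 CPM in replicate 1 and 14611 in replicate 2. Mir92b alone was 0.960 times their sum in the first and 1.74 times in the second. The sum leaves out Mir9-1, which was not counted, and 8 of the 10 genes can lose reads as multiply mapped. It may hence be too low, and the comparison holds for counted reads alone.

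**Figure D4:**
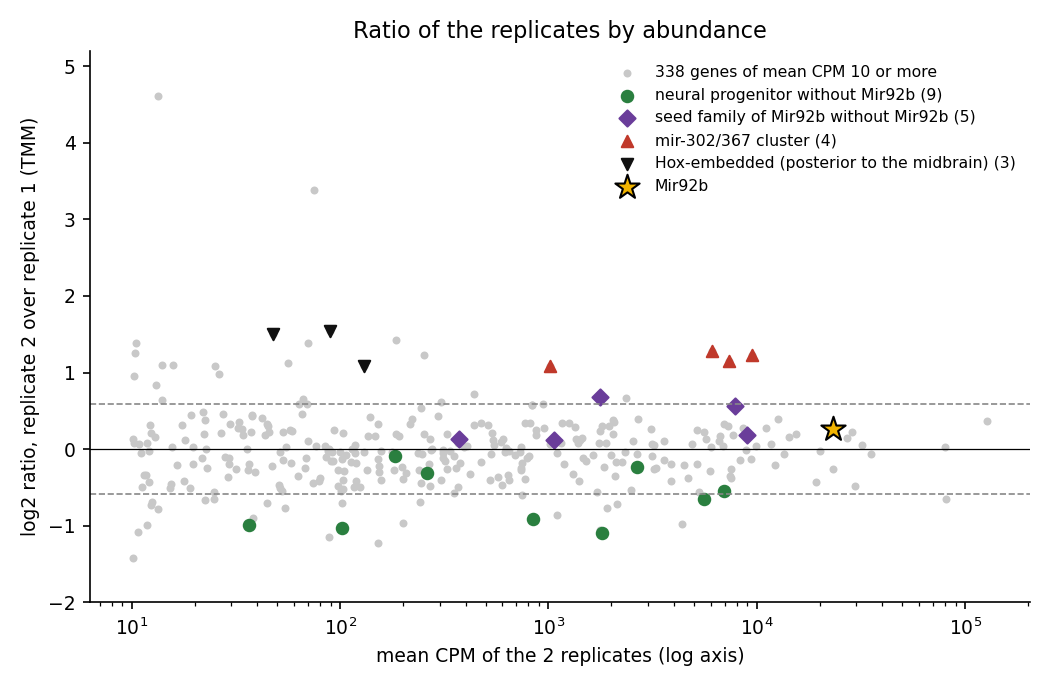
Log2 ratio of replicate 2 over replicate 1 (TMM) against mean CPM (log axis) for 338 genes, with dashed lines at 1.5-fold. Mir92b (star) lies at 0.26 with the other genes of its seed above 0, whereas the 9 other genes of the neural progenitor list lie below 0.

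Part of this list can be counted only in part. Of the 10 genes besides Mir92b, 8 have a 20-base stretch in common with other loci, among them Mir9-2 and Mir9-3, genes of a defining microRNA of the neural tube. Mir9-2 had 3 and 4 reads and Mir9-3 had 452 and 246. The whole of miR-9-5p and of miR-9-3p occurs in 3 microRNA genes, so reads within either cannot be assigned to 1 of them, and how many reads were lost in this way was not tested. The 3 genes of miR-124, which defines neurons, had 56 reads or fewer in each library and also have a 20-base stretch in common with other loci. Low counts of these genes hence do not show that the microRNA was scarce, nor that reads were lost. Of the neuronal list, 13 of 15 genes of mean CPM 10 or more had a log2 ratio below 0 (median −0.51), and 7 of the 15 were more than 1.5-fold lower in replicate 2, beside the 178 of 338 and 8.28% of all genes given above. The list was led by Mir153 with 2403 and 1408 CPM and Mir137 with 1424 and 782 CPM, both free of shared stretches. Mir138-2 had 127 and 77.9 CPM.

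MicroRNAs of other cells and regions differed between the same pools, and their part in the ratio of Mir92b was not tested. The 4 genes of the mir-302 cluster with a mean of 10 CPM or more, known from pluripotent cells and the early embryo, were 2.13- to 2.44-fold higher in replicate 2, led by Mir302a with 5669 and 13266 CPM. Of the 6 microRNAs embedded in the Hox clusters, which mark tissue posterior to the midbrain, Mir10a had 83.4 and 176 CPM, Mir10b 46.1 and 134 CPM and Mir196b 24.9 and 70.6 CPM. These 3 were more than 1.5-fold higher in replicate 2, beside the same 8.88% of all genes. The Hox list summed to 162 and 395 CPM, and Mir196a-1 had no reads. Mir126a, the sole endothelial marker, was higher in replicate 2 by a log2 ratio of 0.22, close to that of Mir92b. The epithelial list summed to 3397 and 4092 CPM over its 7 genes, led by Mir205 (1213 and 1472 CPM), Mir429 (666 and 993 CPM) and Mir203 (872 and 666 CPM).

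The mesenchymal list was lower in replicate 2, with 16688 and 13612 CPM over 7 genes, led by Mir143 (8342 and 6509 CPM), Mir214 (4136 and 3606 CPM) and Mir140 (3562 and 2995 CPM). Blood cell lists were small beside Mir92b in both pools. The 3 erythroid genes summed to 404 and 374 CPM, with Mir451a at 354 and 295, Mir144 at 32.1 and 43.7 and Mir486 at 17.6 and 34.8 CPM. The 3 counted leukocyte genes summed to 595 and 588 CPM, nearly all from Mir223 and Mir155 (312 ± 2.05 and 272 ± 2.58 CPM, SD, n = 2). This sum leaves out Mir142, which was listed but not counted. Mir142b, a counted gene outside the list, had a mean of 773 CPM, more than that sum, and a log2 ratio of 0.35. Whether its reads came from Mir142 was not tested. Which cells of the midbrain held miR-92b was not measured.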

How the data were processed

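The deposited values are raw counts of reads for each microRNA gene, with a file for each library. The authors aligned the reads to mm10 and used GENCODE M4, per the description deposited with the files. The aligner is not given in the sources used here. The files have 3 unnamed count columns, of which the first is the sum of the others in all 1973 gene rows. The first was used, and the second, with 97.4% and 97.3% of gene-assigned reads, was taken as the own strand. The 4 rows that name no gene were left out of library sizes and held 57.8% and 60.9% of the reads; gene-assigned reads numbered 3297835 and 3682410. Of the identifiers, 1894 matched GENCODE M21. A gene was said to share sequence when 20 bases of its precursor occur at another M21 microRNA locus (929 gene rows).

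The log2 ratio used TMM scaling (edgeR 4.0.16) and 0.5 added reads. The calculation was tested on simulated data with counting error alone, which checks the arithmetic and not the spread between pools. Hairpins were folded with RNAfold 2.7.2. Tables and plots were made with pandas 2.3.3, scipy 1.17.1 and matplotlib 3.10.9 under Python 3.11.15, and scaling under R 4.3.3. There is 1 group, so no test between conditions was run. Named genes were Mir92b, its seed family and their polycistrons, the genes ranked around it, the 5 most alike, its neighbours on the chromosome and the 3 highest of each marker list. The gene and the lists were chosen with earlier results of these data known. Alternatives were DESeq2 1.42.0 size factors, total counts, other denominators, the own-strand column, other filters and leaving out each replicate. Mir9-1 and Mir142 of the lists are not among the counted genes.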

Additional observations from a re-analysis of the deposited data

How the results depend on the processing

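Mir92b kept its place among the most abundant genes and the sign of its ratio under every alternative run. Leaving out each replicate gave 21245 to 25352 CPM, ranks 8 to 11 and 52.9 to 54.9% of the seed-family reads. Rank 9 also held on the own-strand column and among genes that share no sequence. Leaving out genes can only keep or raise the rank of Mir92b. The latter setting hence cannot show whether genes that lost multiply mapped reads would lie above it. The mean level was 9439 per 1000000 reads of any kind and 26751 CPM without Mir335 in the denominator, both by construction of the denominator. The log2 ratio was 0.29 with DESeq2 size factors, 0.28 with TMM on genes of mean CPM 10 or more and 0.24 with TMM on genes that share no sequence. The share of seed-family reads was 71.7% without Mir92-1 and Mir92-2. Under all 5 scalings, the main one included, 6 of 6 seed-family genes had ratios above 0 and 9 of 9 other genes of the progenitor list below 0. Of all 338 genes, 154 to 172 were above 0. A scaling moves every log2 ratio by the same amount, which here was smaller than the distance of these listed genes from 0. No sign among them could turn, so the agreement adds no support. No paired analysis was possible because there is 1 group. Depth does not limit the values of Mir92b, but 2 libraries do, and the 13 and 25 reads of Mir367 allow no statement on its ratio (counting interval 0.851 to 3.68).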
